A study of Saccharomyces cerevisiae with 13 samples.

Results

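Divergent gene pairs are neighbouring genes on opposite strands whose 5′ ends face each other, so that both are transcribed away from a shared intergenic region. Among 4280 transcript models of S. cerevisiae, 581 pairs, or 1162 genes, met the definition used here. The 2 models followed each other along a chromosome, the first on the minus strand and the second on the plus strand, and their measured regions lay 400 to 900 bp apart. Because the first 200 bp after the transcription start site (TSS) are left out of a measured region, the 2 TSSs of a pair were 6 to 500 bp apart, with a median of 228 bp. A further 567 divergent neighbours were farther apart and 27 were closer or overlapped. No measured value was used to choose the pairs. Of the 581 pairs, 577 had both genes in the R64 annotation, and all 577 had the expected orientation there. The region between the start codons of those 577 pairs had a median length of 339 bp, and in 7 of them another annotated protein-coding gene lay in between.

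The RNA came from the haploid laboratory strain BY4742, grown in rich glucose medium to log phase at 30° or exposed after that to 39° for 20 min (HS). Nuclear run-on (NRO) libraries held nascent RNA, into which engaged polymerases of permeabilized cells had built biotin-UTP and which was then enriched with streptavidin, and total RNA was sequenced beside it without enrichment. Both kinds of library kept the strand. Each of the 4 groups, NRO and total RNA at 30° and the same after heat shock, had 3 libraries, which the authors merged, so that each gene had 1 pooled value per group and no replicate spread. Read density is the mean depth of reads per mappable base outside introns, per 1000000 bases acquired in the merged library, and allows genes of different length to be compared. The RNA of the study came from independent cultures, whose values the merging no longer keeps apart. The merged libraries held an estimated 2491144 reads for NRO and 894262 for total RNA at 30°, and 378273 and 656630 after heat shock. Every interval of a ratio below is an exact binomial 95% interval on estimated reads and covers counting error only. No test between conditions was possible, and the words higher and lower describe the merged libraries.

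In yeast, intergenic regions are short and many promoters face a second promoter. Each promoter of such a pair usually assembles its own preinitiation complex beside a nucleosome-depleted region, and activators bound in between can act on one gene or on both. During heat shock, yeast activates genes for chaperones through Hsf1 and genes for stress protection through Msn2 and Msn4, and represses genes for ribosomes and their assembly. Hsf1 binds inverted repeats of a short unit, Msn2 and Msn4 bind the stress response element (STRE), and genes for ribosome assembly often carry the PAC and RRPE elements.

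The following stretches between divergent genes were chosen because they belong to pairs whose heat shock values are described below. Each was read from the RefSeq R64 genome, 5′ to 3′ on the plus strand, with the minus-strand gene on the left. Only the bases that lie outside both transcript models, however the leader sequence is divided between the partners, are shown, so that up to 158 bases on each side were left off. Capitals mark matches to any of 5 motifs on either strand. The core of the STRE was searched as AGGGG, and a pair of facing Hsf1 units as TTCNNGAA or GAANNTTC. The core of PAC was searched as GATGAG and that of RRPE as AAAATTTT. The last motif was TATAAA, the core of the TATA box. The reverse complement of a motif is therefore in capitals as well, and matches may overlap. A match is a description of the letters and not a site shown to be bound.
OPI3 and MOG1, chrX:572976-573054: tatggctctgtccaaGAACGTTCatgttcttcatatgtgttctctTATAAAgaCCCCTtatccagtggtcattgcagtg
IMP21 and RRD1, chrIX:55063-55156: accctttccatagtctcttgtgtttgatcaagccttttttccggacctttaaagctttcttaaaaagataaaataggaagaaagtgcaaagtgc
MSC1 and RSC9, chrXIII:16835-16905: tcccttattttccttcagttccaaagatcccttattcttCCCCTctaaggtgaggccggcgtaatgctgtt
SIS1 and LST8, chrXIV:619714-619918: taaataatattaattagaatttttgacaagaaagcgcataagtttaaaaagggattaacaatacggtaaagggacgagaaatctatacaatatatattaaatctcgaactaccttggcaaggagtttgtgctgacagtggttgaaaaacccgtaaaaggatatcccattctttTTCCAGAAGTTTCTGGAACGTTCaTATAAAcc
GEP3 and NOC2, chrXV:727251-727495: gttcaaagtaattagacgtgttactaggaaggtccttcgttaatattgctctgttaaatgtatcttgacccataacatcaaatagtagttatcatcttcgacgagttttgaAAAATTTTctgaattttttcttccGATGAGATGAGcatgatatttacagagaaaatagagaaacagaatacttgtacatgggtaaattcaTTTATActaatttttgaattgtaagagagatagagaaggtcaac
NSA2 and LCP5, chrV:414225-414435: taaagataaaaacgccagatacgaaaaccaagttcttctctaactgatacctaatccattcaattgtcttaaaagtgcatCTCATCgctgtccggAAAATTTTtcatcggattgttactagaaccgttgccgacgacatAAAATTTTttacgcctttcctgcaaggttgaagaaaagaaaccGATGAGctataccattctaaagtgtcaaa
DED81 and YHR020W, chrVIII:143709-143845: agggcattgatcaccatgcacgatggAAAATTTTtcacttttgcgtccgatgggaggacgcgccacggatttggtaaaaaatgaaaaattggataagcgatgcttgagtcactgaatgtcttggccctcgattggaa
TYS1 and TFG1, chrVII:867572-867722: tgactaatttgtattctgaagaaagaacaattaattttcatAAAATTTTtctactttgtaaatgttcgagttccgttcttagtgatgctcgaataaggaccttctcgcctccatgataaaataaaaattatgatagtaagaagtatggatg
The run between SIS1 and LST8 held 4 overlapping pairs of Hsf1 units next to a TATAAA, and the stretch between GEP3 and NOC2 held an RRPE core followed by 2 overlapping PAC cores. The stretch between NSA2 and LCP5 held 2 RRPE cores and 2 PAC cores. No searched motif was found between IMP21 and RRD1.

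The genes of divergent pairs were transcribed at the levels of yeast genes in general. Of the 1162 genes, 966 had an NRO read density above 0, with a median of 0.0310, against 0.0329 over the 3585 models above 0 in the whole table. In total RNA the median was 0.0302 for 983 genes of the pairs and 0.0287 for 3680 models. A density of 0 was listed for 196 genes of the pairs in NRO, 179 in total RNA, 359 in NRO (HS) and 231 in total RNA (HS), and 92 were at 0 in all 4. Genes that every cell needs were among those at 0, such as BRX1 and NIP7, both required to build the large ribosomal subunit and at 0 in NRO and total RNA, so that 0 is given here only as the listed value. Both partners were at 0 in NRO in 29 pairs and 1 partner was at 0 in 138 pairs. Both were at 0 in 4.99% of divergent pairs, where 2.84% would follow from the share at 0 on each side. The corresponding values for same-strand neighbours were 3.35% and 2.28%.

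The partners of a pair mostly differed in transcriptional activity. Over the 318 pairs with at least 10 estimated NRO reads of each partner, the more active partner had a median of 3.10 times the NRO read density of the other. In 212 of those pairs the ratio was at least 2, and in 56 it was at least 10. The most unequal pair was YLR108C and AHP1. AHP1, which encodes an abundant peroxiredoxin, had read densities of 4.265 in NRO, 3.50 in total RNA, 7.23 in NRO (HS) and 8.54 in total RNA (HS). YLR108C, an uncharacterized gene whose TSS lay 372 bp away, had 0.00466 in NRO and 0.000683 in total RNA and was listed at 0 in both heat shock libraries. The NRO densities thus differed by 916-fold, from 4569 estimated reads for AHP1 and 19 for YLR108C.

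The next largest ratios included a range of housekeeping genes. RPS28A, for a small subunit ribosomal protein, had an NRO read density of 2.87 and its partner GLN4, for glutaminyl-tRNA synthetase, had 0.0145, a ratio of 198. RPN13, for a ubiquitin receptor of the proteasome, stood at 0.221 beside 0.00132 for DCK1, which encodes a guanine nucleotide exchange factor, a ratio of 168. The RNA helicase gene PRP43 stood at 0.281 beside 0.00282 for COQ8, needed to make ubiquinone, and the splicing factor gene SYF2 at 0.233 beside 0.00238 for UTP8, which acts in tRNA export and ribosome assembly. In each of these pairs the less active partner had 10 to 84 estimated NRO reads, so that the ratio itself is imprecise.

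Pairs with both partners highly active were fewer. The highest NRO density of the less active partner was that of YLR179C, an uncharacterized gene, beside SAM1, which encodes an S-adenosylmethionine synthetase. YLR179C had read densities of 0.6999 in NRO, 1.13 in total RNA, 0.696 in NRO (HS) and 0.825 in total RNA (HS). SAM1 had 0.825, 0.728, 0.751 and 0.539 in the same order. In total RNA both were lower after heat shock, with ratios of 0.727 (0.627 to 0.846) for YLR179C and 0.740 (0.657 to 0.831) for SAM1. The NRO intervals of both genes held 1. The pairs that followed were COX17 and DRS1, SBH2 and GPA2, DED81 and YHR020W, and YPT1 and TUB2, with 0.177 to 0.268 for the less active partner. COX17 encodes a copper chaperone for cytochrome oxidase and DRS1 a helicase of the large ribosomal subunit, and their NRO densities were 0.635 and 0.268. YPT1, for a Rab GTPase of the secretory pathway, and TUB2, for beta-tubulin, had 0.470 and 0.177 in NRO and 1.16 and 0.371 in total RNA. Across the 4 libraries the order of YPT1 and TUB2 was the same, as it was for SBH2, a subunit of an endoplasmic reticulum translocation complex, above GPA2, a G protein alpha subunit.

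**Figure D1:**
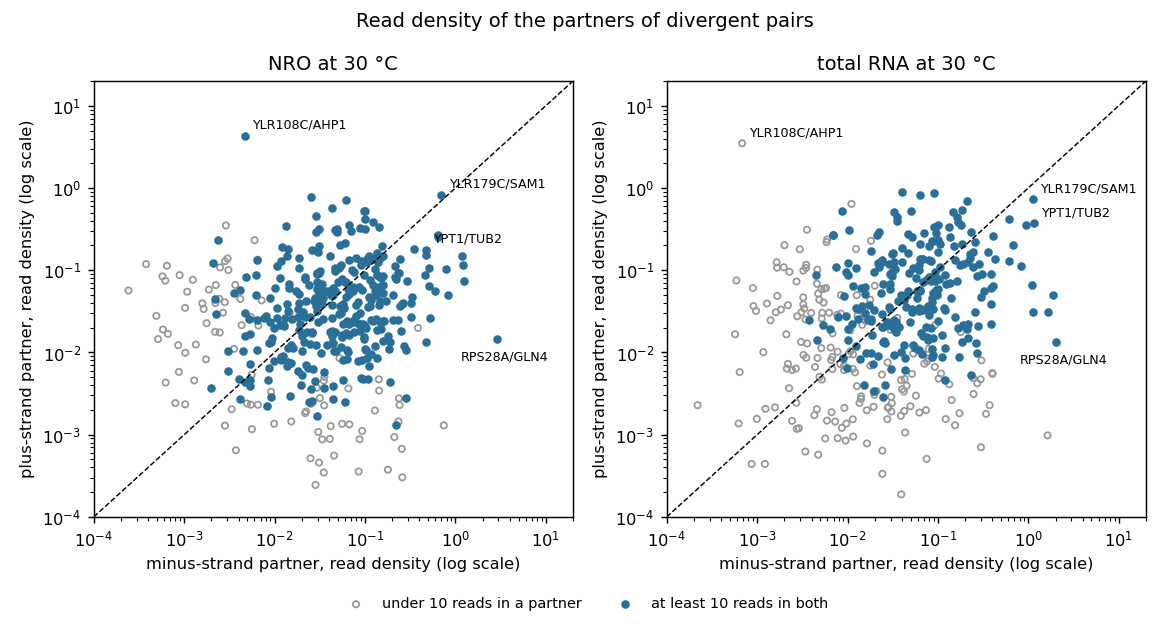
NRO (left) and total RNA (right) read density at 30° of the minus-strand partner (x axis) and the plus-strand partner (y axis) of each divergent pair with both values above 0, in read depth per 1000000 bases acquired, on log scales. The dashed line marks equal density. Points spread widely around it, and YLR108C and AHP1 lie farthest from it in NRO, with 0.00466 and 4.265.

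Partner likeness was expressed as Pearson's r across pairs, on log2 values of pairs with both partners above 0. All points come from the same merged libraries, and r is given as a description. For divergent pairs r was 0.09 in NRO (n = 414), 0.21 in total RNA (n = 422), 0.17 in NRO (HS) (n = 287) and 0.16 in total RNA (HS) (n = 384). For consecutive genes on the same strand the values were 0.13 (n = 1398), 0.15 (n = 1468), 0.15 (n = 985) and 0.12 (n = 1304), and for convergent neighbours they were 0.11, 0.12, 0.16 and 0.11. The median difference between divergent partners was 4.02-fold in NRO and 3.99-fold in total RNA. Between same-strand neighbours it was 4.84-fold and 5.18-fold. With at least 10 reads of each partner, r for divergent pairs was 0.22 in NRO (n = 318) and 0.22 in total RNA (n = 242), against 0.09 and 0.11 for same-strand pairs. The difference between the orientations was not tested, and in all of them the level of one neighbour told little about the level of the other.

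The ratio of NRO to total RNA, which relates nascent to accumulated RNA, was also little alike between partners. Its r was -0.06 at 30° (n = 366) and 0.06 after heat shock (n = 266) in divergent pairs and 0.02 and -0.01 in same-strand pairs. With at least 10 reads, r was 0.02 at 30° (n = 229) and 0.17 after heat shock (n = 116) in divergent pairs. In same-strand pairs it was then -0.01 and 0.05. The median difference of that ratio at 30° was 2.17-fold between divergent partners and 2.38-fold between same-strand neighbours. These contrasts were not tested.

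**Figure D2:**
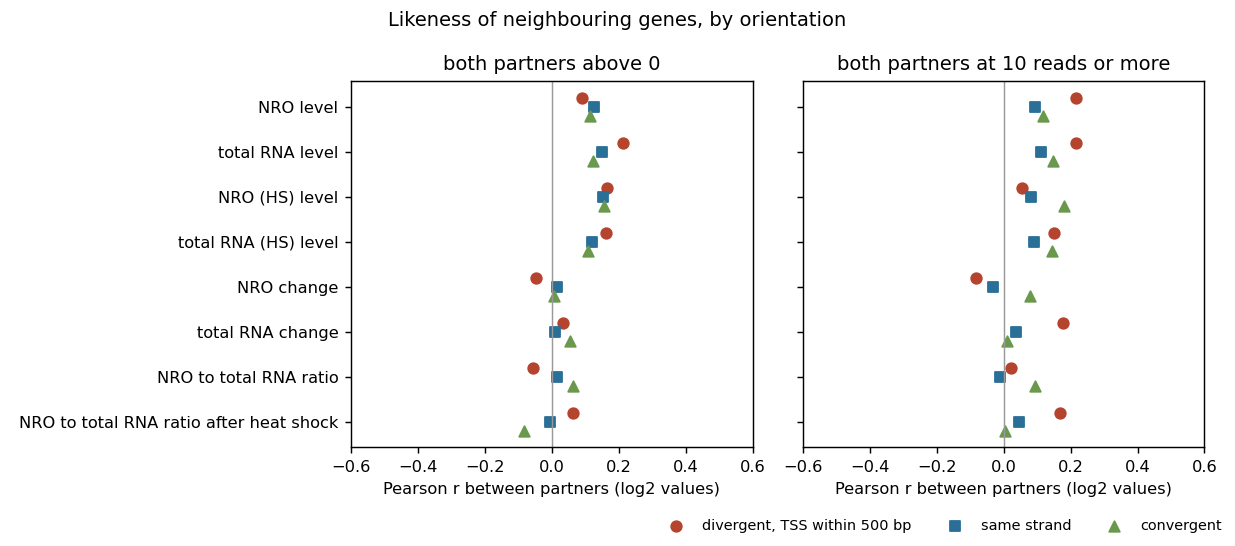
Pearson's r between the partners of divergent (circles), same-strand (squares) and convergent (triangles) neighbours for 8 measures on a log2 scale, for pairs with both partners above 0 (left) and with at least 10 estimated reads of each partner in each library used (right). Values lie between -0.08 and 0.22, and divergent pairs stand at 0.22 for NRO and total RNA density in the right panel.

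Likeness was also described by distance between the TSSs. Up to 100 bp, r of total RNA densities was 0.62 but rested on 13 pairs, and it was 0.17 from there to 200 bp (n = 124), 0.12 to 300 bp (n = 131), 0.25 to 500 bp (n = 154) and 0.03 beyond 500 bp (n = 435). In NRO the values from the second class on were 0.07, 0.09, 0.04 and 0.07. With at least 10 reads the NRO values were 0.63 (n = 11), 0.39 (n = 87), 0.21 (n = 98), 0.06 (n = 122) and 0.00 beyond 500 bp (n = 341). At the limits of the definition, r in NRO was 0.52 over 6 pairs just inside the shorter limit and 0.62 over 6 pairs just outside it, while all 18 pairs measured on the far side of that limit gave -0.24. At the longer limit it was 0.39 just inside and 0.20 just outside (n = 31 and 38).

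The shares of genes of divergent pairs that were higher or lower after heat shock were near those of all genes or below them. In total RNA, 71 of 886 genes with a value above 0 at both temperatures were at least 2-fold higher at 39° and 221 were at least 2-fold lower, or 8.01% and 24.9%. Over all 3282 models with such values, 10.2% were higher and 27.7% lower. In NRO, 128 of 787 genes were higher and 143 lower, or 16.3% and 18.2%, where all 2894 models gave 16.2% and 23.1%. When the counting interval of the ratio also had to lie apart from 1, the counts were 39 and 168 in total RNA, over a background of 6.52% and 20.4%, and 103 and 117 in NRO, over 13.1% and 18.9%. The median log2 change over all models was -0.41 in total RNA and -0.10 in NRO, and the direction of a small change depends on whether it is read against the bases acquired or against that median. Read against the median, 129 genes of pairs were higher and 134 lower in total RNA, and 147 were higher and 127 lower in NRO. The share over all models on that scale is not given here, so these counts are not compared with a background.

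The partner of a gene that changed was called about as often as any gene of the measured pairs in total RNA. Both partners were at least 2-fold higher in total RNA in 2 of 349 pairs and 1 partner was in 46. Both were lower in 23 pairs and 1 was in 130. Of the 50 genes that were higher and had a measurable partner, 4 had a partner that was higher, or 8.0%, where 7.16% of all genes in measured pairs were higher. A further 13 had a partner that was at least 2-fold lower, and the median log2 change of the partners was -0.30. Of the 176 genes that were lower, 46 had a partner that was lower, or 26.1%, where 25.2% of all genes in measured pairs were lower. In same-strand pairs 28.7% of the lower genes had a lower neighbour, and 9.92% of the higher genes had a higher one, over shares of 27.8% and 10.8% in those pairs. In NRO, both partners were higher in 5 of 278 pairs, both were lower in 5, and 1 was higher and the other lower in 15. Of 949 same-strand pairs the counts were 25, 61 and 66 in the same order. Of 103 genes lower in NRO, 9.71% had a lower partner in divergent pairs and 26.5% of 460 had a lower neighbour in same-strand pairs. The shares of lower genes in those pairs were 18.5% and 24.2%, and the difference between the orientations was not tested.

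Across pairs, r of the log2 total RNA changes of partners was 0.03 (n = 349), and r of their NRO changes was -0.05 (n = 278). With at least 10 reads of each partner in both libraries r was 0.18 in total RNA (n = 160) and -0.08 in NRO (n = 133), and with at least 30 reads, a limit added after seeing the data, it was 0.32 (n = 73) and 0.12 (n = 46). For same-strand pairs the total RNA values were 0.01, 0.04 and -0.01 (n = 1214, 581 and 291). Among pairs in which the counting intervals of both partners lay apart from 1, the total RNA changes had the same direction in 46 of 69 divergent pairs (66.7%) and in 62.1% of 269 same-strand pairs. The shares of higher and lower genes alone would give 62.9% and 59.3%. In NRO the direction was shared in 32 of 67 divergent pairs (47.8%), where those shares would give 50.1%. Read against the median of all models, the total RNA direction was shared in 63.0% of 54 divergent pairs. It was then shared in 52.7% of 220 same-strand pairs and 44.7% of 94 convergent pairs. The shares alone would give 51.9%, 51.1% and 50.0%. In NRO that scale gave 46.7% of 60 divergent pairs, where 50.6% would follow. These differences were not tested.

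**Figure D3:**
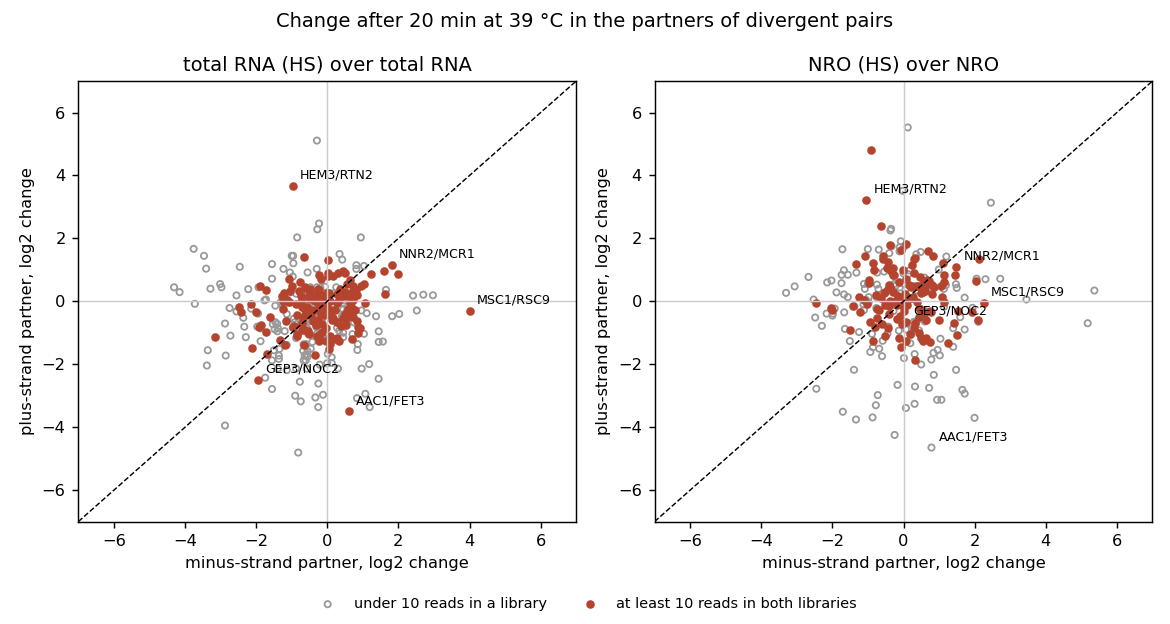
Log2 change after heat shock of the minus-strand partner (x axis) and the plus-strand partner (y axis) of each divergent pair with values above 0, in total RNA (left) and NRO (right), and the line of equal change. Points form a cloud around 0 with arms along both axes, where 1 partner changed and the other did not change much, as for MSC1 at 4.01 with RSC9 at -0.30.

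Both partners were at least 2-fold higher in total RNA in NNR2 with MCR1 and in TFC4 with UFD1, and the latter rested on 8 and 12 reads of TFC4 and 25 and 40 of UFD1. The 5 pairs with the highest common change among those with at least 10 reads are described first, and in 4 of them at least 1 partner was under the 2-fold limit. NNR2 encodes a repair enzyme for hydrated NADH and MCR1 a mitochondrial cytochrome b5 reductase. NNR2 had read densities of 0.0753 in NRO, 0.0834 in total RNA, 0.211 in NRO (HS) and 0.294 in total RNA (HS), and MCR1 had 0.0232, 0.0197, 0.0494 and 0.0443. Total RNA was thus 3.52-fold higher at 39° for NNR2 (interval 2.73 to 4.56) and 2.24-fold higher for MCR1 (1.19 to 4.37), and NRO was 2.80-fold and 2.13-fold higher. Both partners were above their 30° value in both kinds of library. Their TSSs lay 230 bp apart, and the region between the start codons held 2 STRE cores.

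OPI3, for a methyltransferase of phosphatidylcholine synthesis, and MOG1, for a nuclear import factor that binds the yeast Ran protein, had the second highest common change. OPI3 stood at 0.0731 in NRO, 0.216 in total RNA, 0.300 in NRO (HS) and 0.656 in total RNA (HS), and MOG1 at 0.0558, 0.125, 0.0873 and 0.242. The total RNA of OPI3 was 3.04-fold higher (2.40 to 3.92) and that of MOG1 1.93-fold higher (1.38 to 2.70). In NRO the ratio of OPI3 was 4.11 (2.91 to 5.76), and the interval of MOG1 at 0.917 to 2.68 held 1. The printed stretch between these genes held 1 STRE core, 1 pair of Hsf1 units and 1 TATAAA.

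IMP21, for an activator of genes of ion homeostasis, and RRD1, for an activator of protein phosphatase 2A, were changed more in NRO than in total RNA. IMP21 went from 0.222 to 0.967 in NRO and from 0.426 to 0.661 in total RNA. RRD1 went from 0.0773 to 0.195 in NRO and from 0.137 to 0.220 in total RNA. The NRO ratios were 4.35 (3.78 to 5.01) and 2.53 (1.91 to 3.30) and the total RNA ratios 1.55 (1.34 to 1.79) and 1.61 (1.26 to 2.05), so that both partners had intervals above 1 in both. The other pairs of this group were CMI8 with MRPL28 and YPI1 with RPN11. YPI1, a regulator of the phosphatase Glc7, was 2.35-fold higher in total RNA, and RPN11, the deubiquitinating subunit of the proteasome lid, 1.81-fold, while their NRO ratios were 1.07 and 0.922. CMI8 is uncharacterized and had 3 NRO reads at 30°, and the total RNA interval of MRPL28, a protein of the large mitochondrial ribosomal subunit, reached from 0.993 to 3.46.

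In the 5 pairs with the lowest common change, both partners were at least 2-fold lower in total RNA. NOC2 is required for the assembly and export of ribosomal subunits, and GEP3 for the assembly of the small mitochondrial ribosomal subunit. NOC2 had read densities of 0.0818 in NRO, 0.0424 in total RNA, 0.0524 in NRO (HS) and 0.00751 in total RNA (HS), and GEP3 had 0.0215, 0.0360, 0.0225 and 0.00925. The total RNA ratio of NOC2 was 0.177 (0.0816 to 0.343) and that of GEP3 0.257 (0.117 to 0.510). Both had 10 total RNA reads after heat shock. In NRO the ratio of NOC2 was 0.641 (0.448 to 0.881), and that of GEP3 was 1.05 (0.550 to 1.85), so that the partners were less alike in nascent than in total RNA.

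DED81 and YHR020W encode the synthetases that charge asparagine and proline tRNAs and were the only pair with both partners in the list of aminoacyl-tRNA synthetases. DED81 had 0.351 in NRO, 0.675 in total RNA, 0.150 in NRO (HS) and 0.210 in total RNA (HS). YHR020W had 0.181, 0.205, 0.142 and 0.0646. Their total RNA ratios, 0.311 (0.267 to 0.361) and 0.315 (0.245 to 0.396), overlapped almost wholly, whereas their NRO ratios were 0.426 (0.342 to 0.531) and 0.784 (0.640 to 0.959). The remaining pairs were TRM1, a tRNA methyltransferase gene, with DPB4, for a subunit of DNA polymerase epsilon, CSF1, for a protein of lipid transport, with GAA1, for a subunit of the GPI transamidase, and SHB17, for sedoheptulose bisphosphatase, with UIP5. In these 3 pairs the total RNA ratios lay between 0.230 for TRM1 and 0.443 for SHB17, and each interval was below 1.

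The 5 pairs with the largest difference between partners each held 1 gene with a large change. MSC1, which encodes a protein of unclear function, had read densities of 0.0443 in NRO, 0.0326 in total RNA, 0.211 in NRO (HS) and 0.525 in total RNA (HS). Its partner RSC9, for a subunit of the chromatin remodeller RSC, had 0.0132, 0.0250, 0.0127 and 0.0203. The total RNA of MSC1 was 16.1-fold higher (11.95 to 22.2), and the ratio of RSC9 was 0.811 (0.507 to 1.24). NRO gave 4.77 (3.77 to 6.02) for MSC1 and 0.962 (0.468 to 1.73) for RSC9, so that the partners were apart in both kinds of RNA. The TSSs lay 229 bp apart, close to the median of all pairs, and the region held 2 STRE cores, of which 1 stands in the printed stretch.

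RTN2, for a reticulon of the endoplasmic reticulum, was higher after heat shock, and HEM3, for porphobilinogen deaminase of heme synthesis, was lower. RTN2 had 0.0177 in NRO, 0.0133 in total RNA, 0.165 in NRO (HS) and 0.170 in total RNA (HS), while HEM3 had 0.0766, 0.183, 0.0369 and 0.0936. The total RNA ratio was 12.7 (7.71 to 22.4) for RTN2 and 0.511 (0.379 to 0.681) for HEM3, and the NRO ratio 9.30 (6.66 to 13.1) and 0.482 (0.265 to 0.814). In this pair the order of the partners at 39° was the reverse of that at 30° in both kinds of RNA. R64 places another short protein-coding gene between their start codons, which makes this pair one of the 7 such cases.

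FET3 encodes the ferroxidase of high-affinity iron uptake and AAC1 a minor form of the mitochondrial ADP/ATP carrier. FET3 had 0.139 in NRO, 0.293 in total RNA, 0.00556 in NRO (HS) and 0.0260 in total RNA (HS), and AAC1 had 0.0188, 0.0225, 0.0325 and 0.0340. The ratio of FET3 was 0.0887 in total RNA (0.0592 to 0.125) and 0.0399 in NRO (0.0108 to 0.103), whereas the intervals of AAC1 held 1 in both. FET3 was the more active partner at 30° and the less active one at 39°. In the remaining pairs, TYS1 was lower in total RNA, at a ratio of 0.178 (0.106 to 0.272), beside 0.892 (0.713 to 1.11) for TFG1, and STE23 was lower, at 0.268 (0.136 to 0.491), beside 1.39 (0.918 to 2.10) for ECM19. TYS1 encodes tyrosyl-tRNA synthetase, TFG1 the large subunit of TFIIF and STE23 a protease that matures the pheromone a-factor. In NRO, TFG1 was 2.30-fold higher (1.82 to 2.86) while TYS1 had a ratio of 0.551 (0.311 to 0.963). STE23 and ECM19 were both lower in NRO, at 0.520 (0.346 to 0.755) and 0.628 (0.414 to 0.921), so that their intervals overlapped there.

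**Figure D4:**
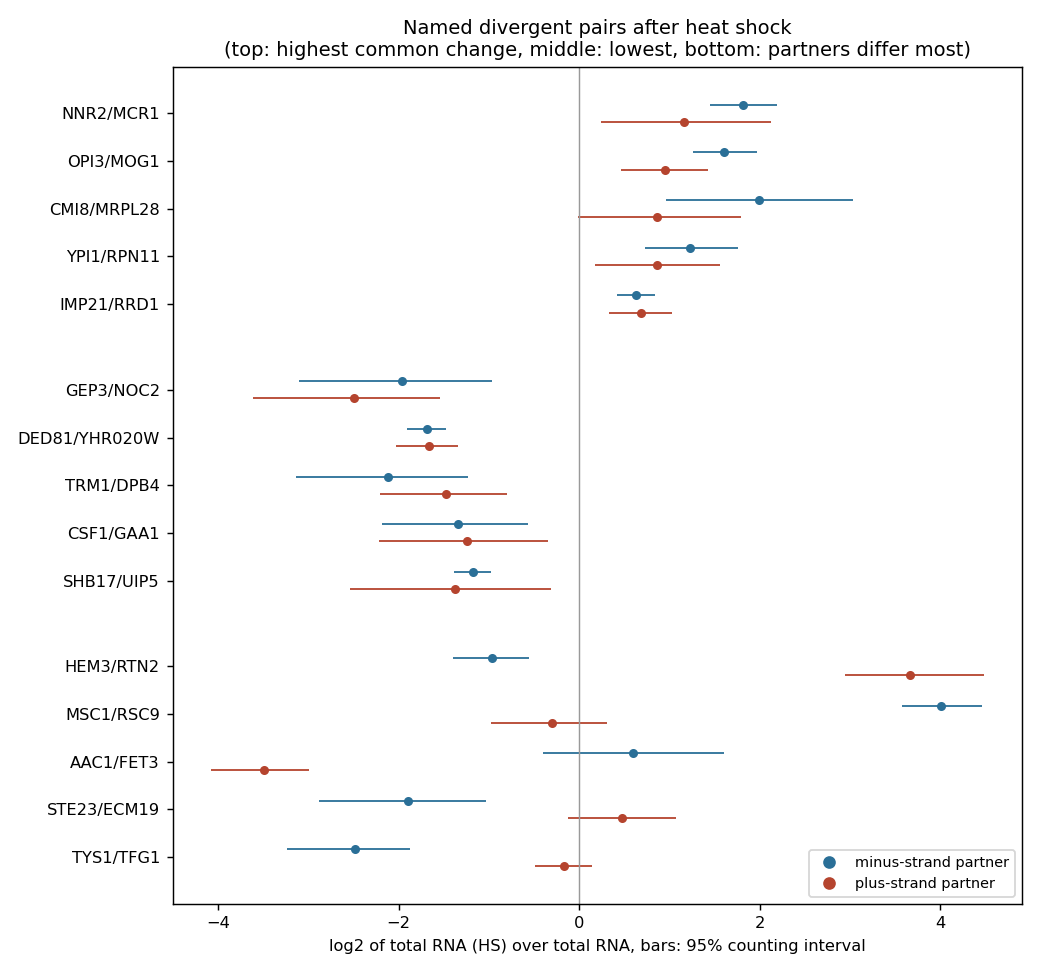
Log2 ratio of total RNA (HS) to total RNA for the partners of 15 named divergent pairs, 5 with the highest common change, 5 with the lowest and 5 with the largest difference, as chosen by those ratios. Points are pooled values, bars are exact binomial 95% counting intervals, and the bars of the partners overlap in each of the first 10 pairs and are apart in each of the last 5.

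A difference between partners in total RNA went only in part with a difference in NRO. Over 259 divergent pairs above 0 in all 4 libraries, r between the within-pair difference of the total RNA changes and that of the NRO changes was 0.30. The sign was the same in 160 pairs, or 61.8%, against 63.6% of 892 same-strand pairs. With at least 10 reads in all 4 libraries r was 0.36 (n = 114), compared with 0.60 in same-strand pairs (n = 443) and 0.62 in convergent pairs (n = 187). The sign was then the same in 59.6%, 68.4% and 70.1% of pairs. This contrast between the orientations was not tested.

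The genes of divergent pairs were further read by functional lists, whose members were counted at the 2-fold limit in total RNA, over the backgrounds of 10.2% higher and 27.7% lower given above. Of the 45 ribosome biogenesis factors in divergent pairs, 37 had values at both temperatures, 0 were higher and 18 lower, and their median log2 change was -0.91, the same as outside the pairs. Among them RRP12 went from 50 to 6 reads, RPF2 from 48 to 5 and RLP24 from 37 to 3. The partners that are not in the list had a median change of -0.62, and 10 of 32 were lower. In 2 pairs both genes belong to the list. NSA2 and LCP5, factors of the large and small subunit, had total RNA ratios of 0.644 (0.409 to 1.01) and 0.531 (0.405 to 0.691), but NRO ratios of 1.26 (0.748 to 2.02) and 0.274 (0.170 to 0.419). RRP3 and SSF1 had total RNA ratios of 0.260 (0.0969 to 0.585) and 0.763 (0.366 to 1.52), and RRP3 had 151 NRO reads at 30° and 0 at 39°, with 0.163 as the upper limit of the interval of the ratio.

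Of 9 aminoacyl-tRNA synthetase genes in divergent pairs, 7 were lower and 0 higher, with a median log2 change of -1.69, against -1.29 for the list outside the pairs. HTS1 had a ratio of 0.224, ALA1 of 0.301 and THS1 of 0.340, with 14 to 28 reads after heat shock. Of their 7 partners outside the list, 2 were lower and 0 higher, and the median was -0.16, which lies above the median of all models. Of the 13 genes for cytosolic ribosomal proteins, 9 had values at both temperatures, and 6 were lower and 0 higher. Their median was -1.21, against -1.55 for the list outside the pairs. These genes often have a near-identical copy, reads that map to both copies were left out, and RPL11A, with 44.5% of its bases mappable, was listed at 0. RPS28A had the lowest ratio of the 9, with a read density of 2.02 at 30° and 0.194 at 39°, and its partner GLN4 had 0.0134 and 0.00327, the latter from 5 reads.

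Stress genes were mostly higher. Of 8 general stress genes in divergent pairs, 7 had values, 4 were higher and 1 lower, and their median change was 1.37, against 1.39 for the list outside the pairs. Beside MSC1 and RTN2 these were NTH1, for neutral trehalase, with a ratio of 2.59 (2.08 to 3.23), and FMP46, for a mitochondrial redox protein, with 3.08 (1.83 to 5.47). GRX1, for a glutaredoxin, was lower on 21 and 8 reads. Their 8 partners had a median change of -0.05, with 1 higher and 1 lower. The list was drawn up from genes known for this response and with earlier results of these data known. Its members MSC1 and RTN2 were also selected by the size of their change.

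Of 11 chaperone genes in divergent pairs, 8 had values, 2 were higher and 2 lower. Their median log2 change was 0.59, against -0.02 for the list outside the pairs, a difference that was not tested. SIS1, an Hsp40 co-chaperone, had read densities of 0.205 in NRO, 0.384 in total RNA, 0.595 in NRO (HS) and 1.14 in total RNA (HS), and was 2.95-fold higher in total RNA (2.60 to 3.36). Its partner LST8, a subunit of the TOR complexes, had 32 and 10 total RNA reads and a log2 change of -1.28. The partners were thus apart on either side of the printed run of Hsf1 units, which lies nearer to the start codon of LST8 than to that of SIS1. SSC1, the Hsp70 of mitochondria, and YDJ1, an Hsp40 of the cytosol, were 1.91-fold (1.81 to 2.02) and 1.78-fold (1.54 to 2.08) higher in total RNA, just under the limit. In NRO both were lower, with ratios of 0.924 (0.861 to 0.990) for SSC1 and 0.666 (0.541 to 0.813) for YDJ1. The other gene over the limit was LHS1, on 4 and 8 reads, and the lower genes were JEM1, from 21 to 1 read, and CPR7, from 21 to 7. The partners of the 11 chaperone genes had a median change of -0.96, and 4 of 9 were lower and 0 higher.

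The share of a list that lay in divergent pairs ranged widely around the 27.1% of all models, from 9.09% of glycolysis and fermentation genes and 10.3% of cytosolic ribosomal proteins to 33.6% of ribosome biogenesis factors, 36.7% of mitochondrial ribosomal proteins, 42.4% of proteasome subunits and 47.4% of aminoacyl-tRNA synthetases, and these shares were not tested. Of the 14 proteasome subunits in pairs, 2 were higher in total RNA, SCL1 at 2.14 (1.30 to 3.57) and PRE6 at 2.14 (1.77 to 2.60), and 0 were lower. Both are subunits of the core particle. The median change of the 14 was 0.43, against 0.06 for the list outside the pairs. The partners had a median of -0.30, with 2 higher and 1 lower of 10. The 29 genes of mitochondrial ribosomal proteins and associated factors gave 1 higher and 3 lower of 17, and the 13 genes of oxidative phosphorylation 1 and 1 of 8, with medians of -0.08 and 0.27. Outside the pairs the medians of these 2 lists were -0.04 and -0.25. The glycolysis and fermentation list had 2 genes in divergent pairs, of which ADH2, for the alcohol dehydrogenase used on ethanol, was higher on 3 and 12 reads and had 86.8% of its bases mappable. None of the core histone or galactose genes belonged to a pair of the definition.

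Divergent pairs that are textbook cases of shared regulation were looked for by name. None of 9 such pairs met the definition. The 4 pairs of core histone genes were neighbours in the table, but their measured regions lay 986 to 1121 bp apart, beyond the limit of 900 bp. In the other 5, GAL1 with GAL10, the 3 pairs of SNO and SNZ genes, and MAL31 with MAL32, at least 1 gene was not among the models analysed here.

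Motifs were counted in the 300 bases before the start codon in R64 for 4259 genes, of which 1158 belong to divergent pairs. The STRE core was found upstream of 23.7% of the genes of pairs and 22.4% of all genes. It was found for 38.0% of the 71 genes of pairs that were higher in total RNA and 44.3% of all 334 higher genes. The RRPE core was found for 13.2% of the genes of pairs and 10.7% of all genes. It was found for 23.6% of the 220 genes of pairs that were lower and 17.5% of all 908 lower genes. The PAC core gave 25.3%, 19.1%, 35.5% and 25.4% in the same order. TATAAA was found for 38.1% of the genes of pairs and 46.8% of all genes. The paired Hsf1 units were found for 22.1% and 23.2%, and for 21.1% of the genes of pairs that were higher. AGGGG and GATGAG are short and occur by base composition alone, and windows of divergent partners overlap. In 235 of 577 pairs the region between the start codons was 300 bp or shorter. There the window spans the whole region and can reach into the partner's gene, which limits the comparison of pairs with all genes.

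**Figure D5:**
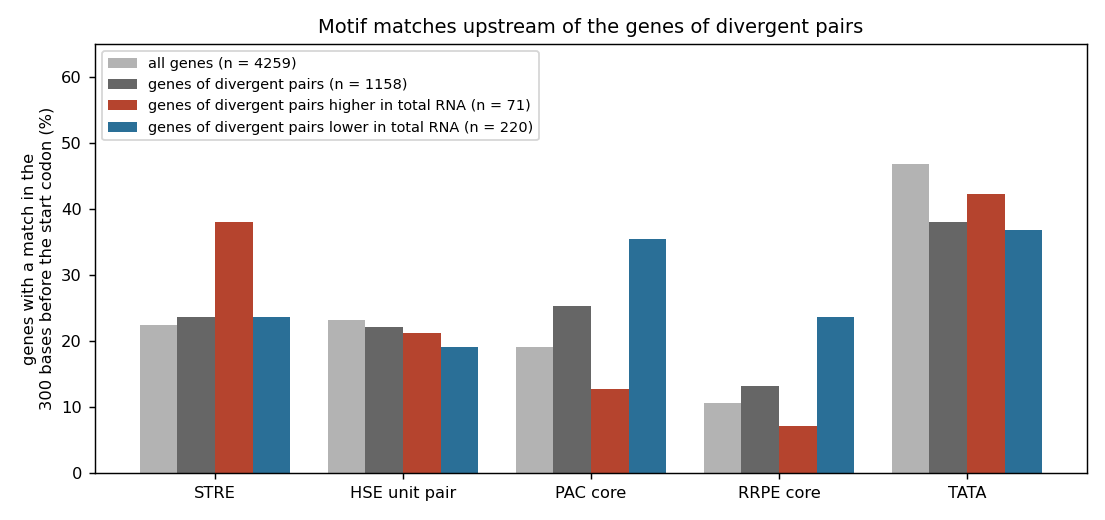
Share of genes (y axis, percent) with a motif on either strand in the 300 bases before the start codon, for all genes, the genes of divergent pairs, and those of them at least 2-fold higher or lower in total RNA after heat shock. The STRE core stands at 38.0% in the higher genes, and the PAC and RRPE cores stand at 35.5% and 23.6% in the lower genes.

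Because the region between the start codons is shared, a motif there lies upstream of both start codons. It can still lie in the transcribed leader of 1 partner, since the regions had a median of 339 bp and the TSSs a median distance of 228 bp. An STRE core was present in 162 of 577 regions, and 114 of those pairs had total RNA values for both partners. Of these, 1 pair had both partners higher and 21 had 1 partner higher, or 19.3% with any, against 11.1% of the 234 pairs without the core, whose regions were shorter (median 310 against 466 bp). TATAAA gave a like contrast, 17.6% with it and 10.1% without, again with longer regions (445 against 296.5 bp). The other motifs went the other way. The shares with any higher partner were 12.2% and 14.3% for paired Hsf1 units, 8.74% and 15.9% for PAC, and 9.38% and 14.8% for RRPE. With regions that hold no other coding gene, 19 pairs had an STRE core and exactly 1 higher partner, and the core nearest to the higher gene was closer than that to its partner in 14 of them. For pairs with exactly 1 lower partner and a PAC core, the core was nearer to the lower gene in 30 of 42. With an RRPE core it was nearer to the lower gene in 17 pairs and to the partner in 13. With an RRPE core, 60.9% of 64 pairs had a lower partner and 9 had both lower, against 39.8% and 14 of 284 pairs without it. These shares were not tested. The motifs were chosen from earlier knowledge of the heat shock response and with earlier results of these data known.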

How the data were processed

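The data were pooled coverage values of 12 of 13 labelled libraries, and the 3′ NRO library was not analysed here. The authors aligned reads with Maq to sacCer2, kept a mapping quality of at least 30, left out rDNA, merged the 3 libraries of each group and deposited the signal of every transcript model free of same-strand overlap, as read depth scaled to the bases acquired. The deposited region lengths and mappable base numbers, in other units than depth, were used to turn density into depth. A total of 24 columns, 6 for each merged library, was not used. The libraries were made from independent cultures, as the methods of the study say.

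Reads were estimated from the common step of the depths and the read length that divides most low depths (38 bases for total RNA at 30° and 36 for the others). The study's methods state reads of 36 bases throughout, but in total RNA at 30° only 0.561% of low depths were whole multiples of 36 and 81.1% of 38. With 36 the estimate there is 943943 reads in place of 894262, densities and ratios stay as they are, and the intervals shift slightly. A model had a median of 69.0 reads in NRO, 23 in total RNA, 8 in NRO (HS) and 11 in total RNA (HS). A read that crosses the border of a region is counted as a fraction. Models were sorted by chromosome and start, and consecutive models formed the pairs. Because there is 1 value per group, no test was run. Correlations are Pearson's r on log2 read density of pairs with both partners above 0. A ratio of 2 or more, or its inverse, defined higher and lower. Intervals of ratios are exact binomial (Clopper-Pearson) on estimated reads and cover counting error only, as reads are not independent molecules.

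The named pairs were the 5 with the highest NRO density of the lower partner, the 5 with both total RNA changes highest, the 5 with both lowest, the 5 with the largest difference between them and the 5 with the largest NRO ratio, among pairs with at least 10 reads of each partner in each library compared, and 9 textbook pairs. Pairs inside a functional list, SIS1 with LST8 and list members beyond that rule were named after their values were seen. The members, lists and motifs were chosen with earlier results of these data known. Gene names came from R64, in which 4259 of 4280 models were found by systematic name, and sequences from the RefSeq R64 genome by its own annotation, since coordinates of sacCer2 cannot be used there. Functions were tested on simulated data. The tools were scipy 1.17.1 for the intervals, pandas 2.3.3 and numpy 2.4.6 under Python 3.11.15, and matplotlib 3.10.9 for the plots. Alternatives covered limits on reads, a pseudocount of 0.01, rank correlation, at least 90% mappable bases, other gaps, other fold limits and centring on the median.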

Additional observations from a re-analysis of the deposited data

How the results depend on the processing

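Each r was compared with a 95% range around its first value. That range treats the pairs as independent points, serves only to sort the settings and is no test. Rank correlation, a pseudocount of 0.01, at least 90% mappable bases and leaving out pairs with another coding gene between left each r within it. For same-strand pairs, so did a gap chosen to match. The medians of levels moved by less than 0.2 on the log2 scale. Limits on reads did not keep each r within that range. With at least 10 reads, r in divergent pairs became 0.22 for NRO and 0.18 for the total RNA change, and in same-strand pairs 0.082 for NRO (HS). With at least 30 reads, added after seeing the data, r in divergent pairs became -0.034 for NRO (HS), 0.00476 for total RNA (HS), 0.12 for the NRO change and 0.32 for the total RNA change, and in same-strand pairs 0.082 for total RNA, 0.065 for NRO (HS), 0.045 for total RNA (HS) and 0.076 for the NRO to total RNA ratio after heat shock. By TSS distance, at least 10 reads gave 0.39 for NRO between 100 and 200 bp, 0.41 for the total RNA change between 200 and 300 bp, and -0.20 and -0.12 for the NRO and total RNA changes beyond 500 bp. Where the TSSs overlapped, too few pairs had 10 reads to give r for the changes.

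Counts follow the fold limit by construction. Those in this paragraph are given without the share over all models and are not compared with a background. At 1.5-fold, 214 genes of pairs were higher and 234 lower in NRO and 129 and 346 in total RNA, with both partners in 20, 22, 9 and 64 pairs. At 3-fold the genes were 62, 69, 27 and 111 and the pairs 1, 2, 0 and 6. Centred on the median of all models, 129 genes were higher and 134 lower in total RNA, with both partners in 9 and 11 pairs. With at least 10 reads, 48 genes were lower in NRO, 34 higher and 86 lower in total RNA, and both partners were higher in 3 pairs and lower in 0 in NRO and higher in 1 and lower in 6 in total RNA. The cause of these shifts was not tested. A change of 2-fold or more cannot turn its direction under the centring, whose shifts are -0.41 and -0.10, or under the pseudocount, by construction. With a read length of 36 bases in every library, added after seeing the data, 39 genes of pairs were higher and 165 lower in total RNA with an interval apart from 1, where 39 and 168 were found before. No paired analysis was possible because the pooled values carry no replicates, so that leaving out a replicate was not possible either. Depth limits the heat shock NRO values most, where 359 genes of pairs were at 0 and the median was 8 reads.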

Other observations

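Of the 5 pairs with both partners at least 2-fold higher in NRO, 1 was also among the 2 such pairs in total RNA, and of the 5 lower in NRO, 0 were among the 23 in total RNA. Those 2 and 23 pairs were out of 349 measured in total RNA, so that little or no overlap would follow from these shares alone. The lower NRO pair PRP19 with GRC3 was not measured there, as GRC3 had 16 reads in total RNA and 0 in total RNA (HS). The overlap was not tested and does not show whether nascent and total RNA differed. The 5 pairs with both partners at least 2-fold higher in NRO were NNR2 with MCR1, IMP21 with RRD1, GRX1 with LSB5, CIN10 with RVS167 and NSG2 with CUZ1, the last 3 of which were named after their values were seen. The NRO interval of GRX1, at 0.823 to 5.67, held 1, and CUZ1 rested on 3 and 4 reads. RVS167, which acts in endocytosis, went from 669 to 234 estimated reads, a log2 change of 1.20 once scaled to the bases acquired, and CIN10 changed by 1.11 on 52 and 17 reads. Of the 5 pairs lower in NRO, PML39 with URA5 was the only one with both counting intervals apart from 1, with log2 changes of -2.45 and -2.78. These rested on 3 and 5 reads after heat shock. URA5 encodes an enzyme of pyrimidine synthesis.

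Opposite changes of at least 2-fold with both intervals apart from 1 were seen in 9 of 278 measured divergent pairs in NRO and 6 of 349 in total RNA. Same-strand neighbours gave 50 of 949 and 24 of 1214, and convergent neighbours 21 of 476 and 7 of 631. The differences were not tested. The 6 divergent pairs in total RNA were GUD1 with AIM6, PKH1 with IZH1, FIS1 with EFM4, JSN1 with BUD4, SIS1 with LST8 and ALG8 with VPS5, again named after the values were seen. In each, the lower partner had 10 reads or fewer after heat shock. FIS1, for a mitochondrial fission factor, went from 25 to 49 reads while EFM4, whose TSS lay 116 bp away, went from 45 to 6.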
